A study of Mus musculus with 32 samples.

Results

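The nuclear genes for mitochondrial ribosomal proteins, named Mrpl for the large and Mrps for the small subunit, were followed through 16 maps of N6-methyladenosine (m6A) in mouse embryonic stem cells. Members were all protein-coding genes of the mm10 build whose symbol is Mrpl or Mrps followed by digits, which gave 78 genes (49 Mrpl and 29 Mrps) of 21900 protein-coding genes. The choice used symbols alone and no measured value. A member was counted as carrying a peak in a library when the summit of a peak, the base of highest signal, lay inside its gene body.

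Mitochondrial ribosomes make the few proteins encoded by mitochondrial DNA, all of them core parts of the respiratory chain. Every protein of these ribosomes is encoded in the nucleus, translated in the cytosol and imported, so its messenger RNA is made, processed and can be methylated like any other nuclear transcript. METTL3 and METTL14 are the partner subunits of the enzyme that places m6A on RNA, most often at GGAC-like sequences and near the stop codon or in long internal exons, and m6A is best known for shortening the life of the transcripts that carry it.

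The cells were of a C57BL/6 background and formed 8 groups of 2 libraries. Mettl3 CKO cells were set against the Control cells of the Mettl3 line, and Mettl14 CKO cells against those of the Mettl14 line, each once in caRNA and once in mRNA. CKO commonly stands for conditional knockout, and the labels state neither the Cre driver or agent used nor how completely the gene was deleted. All groups shared a medium with LIF at 1000 U/ml, CHIR99021 at 3 µM and PD0325901 at 1 µM. caRNA is RNA of the chromatin fraction with ribosomal RNA removed, and mRNA here is RNA selected for its poly(A) tail. An anti-m6A antibody enriched fragments of each (MeRIP-seq). Nothing in the labels says that the libraries of a group came from separate cultures, so the spread between them may be technical.

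The lists held 37955 to 45241 peaks in caRNA and 16537 to 23380 in mRNA, and the shortest were those of the Mettl14 Control mRNA libraries (16537 and 17738, against 23380 and 22654 in Mettl14 CKO mRNA). Read depth is unknown. In bulk libraries such as these, fewer cells that carry a mark and less mark per cell cannot be told apart, and a missing peak can also mean less RNA of that gene or a shallower library. Of 10 pluripotency genes, 6 to 10 carried a peak in each library, and of 10 fibroblast genes (feeder cells are fibroblasts) 2 to 7 did. A peak does not measure expression, so this does not check the cell type. Peaks on the targeted genes do not check the genotype either. In caRNA Mettl14 had no peak in the 2 Mettl14 CKO libraries, against folds of 3.82 and 2.82 in the 2 Control libraries, while Mettl3 kept a peak in all 4 caRNA libraries of its line (4.26 and 4.64 in CKO, 4.16 and 6.82 in Control). Yet Mettl14 also lacked a caRNA peak in the Mettl3-line Control libraries, against folds of 5.53 and 5.33 in Mettl3 CKO. In mRNA of its own line Mettl14 had a peak in CKO library 1 (2.30) and in both Control libraries (1.69 and 3.07). Mettl3 had an mRNA peak in Mettl3 CKO library 2 alone (3.40).

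Most mitochondrial ribosomal protein genes carried m6A peaks. A peak was found on 76 of the 78 members in at least 1 library, and 21 members carried one in all 16. Mrpl30 and Mrpl35, both large subunit genes, had none in any library, and Mrpl42 and Mrps33 had one in a single caRNA library each. Members are short genes, with a median body of 7690.5 bp against 17146 bp over all protein-coding genes. Even so, in every library a larger share of members than of protein-coding genes held a peak, from 46.2% against 34.8% in 1 Mettl14 Control mRNA library to 92.3% against 50.4% in 1 Mettl3 Control caRNA library. These shares are a description and were not tested. The 21 genes marked in all 16 libraries were 27.6% of the members with any peak, against 41% among all protein-coding genes with any peak.

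**Figure D1:**
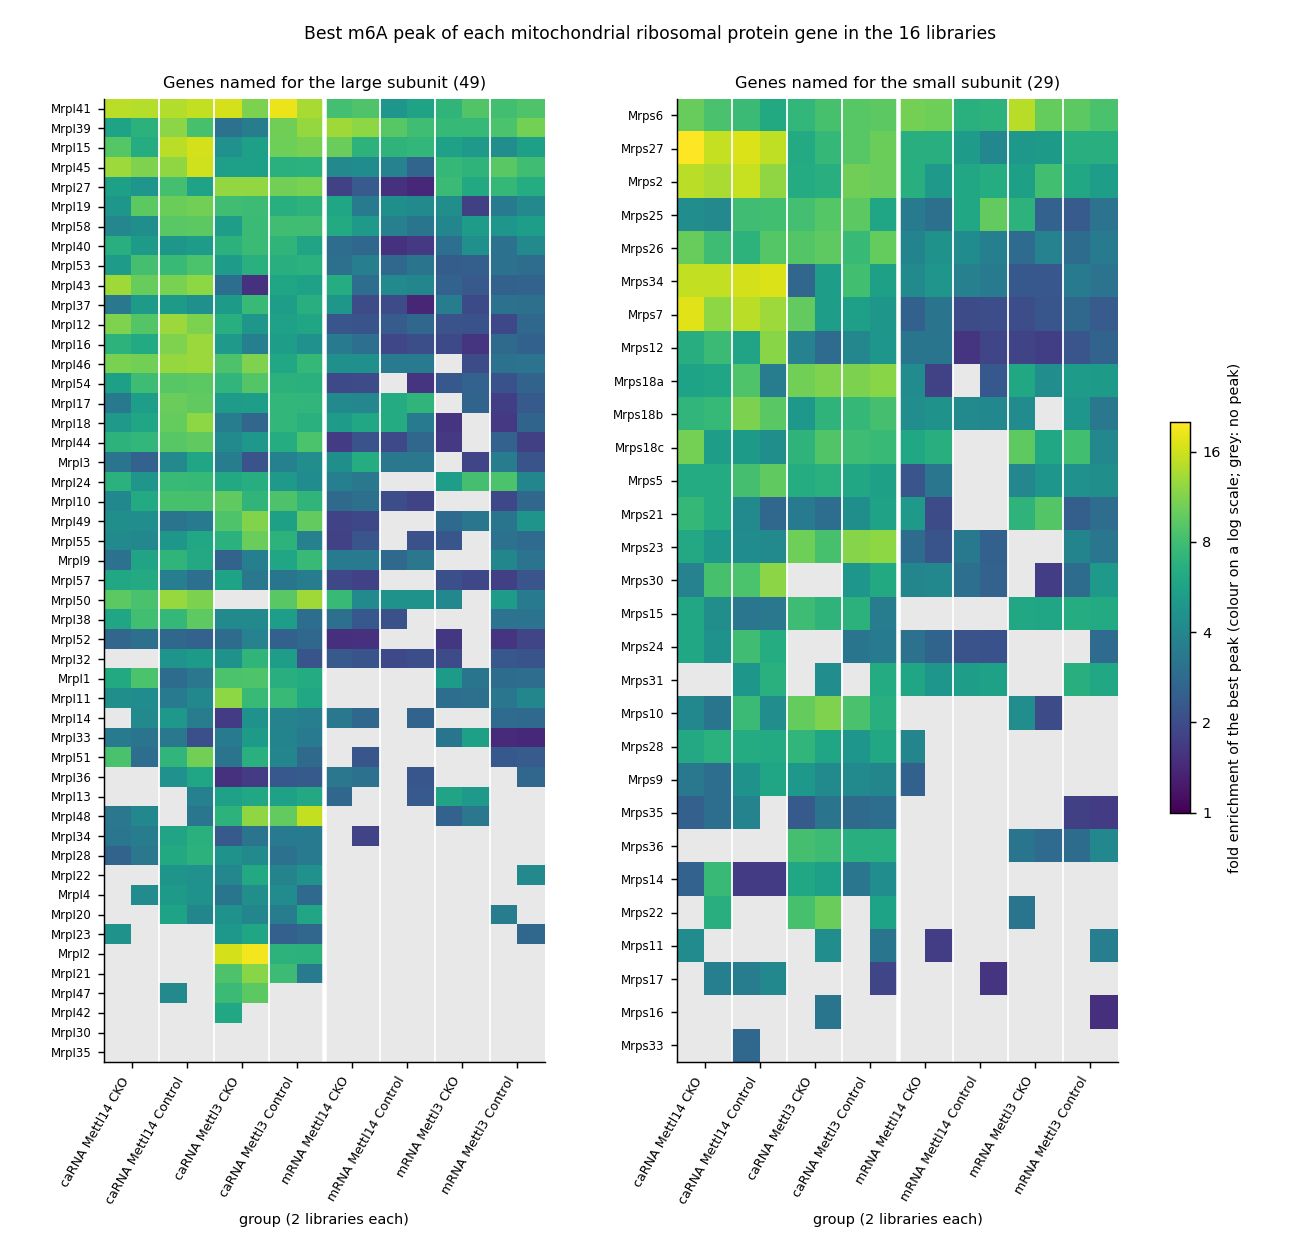
Fold enrichment of the best peak of each of the 78 members (rows) in the 16 libraries (columns, 2 per group, CKO left of Control, caRNA left of mRNA). Genes named for the large subunit (Mrpl) are left and those named for the small subunit (Mrps) right. Colour runs on a log scale, grey means no peak, and 21 rows are filled throughout while 2 are empty.

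The genes marked in all 16 libraries came from both subunits. Among the large subunit genes they included Mrpl12, whose product forms the stalk that recruits translation factors, Mrpl45, which anchors the ribosome at the inner membrane beside the exit tunnel, and Mrpl58, a peptidyl-tRNA hydrolase built into the ribosome. The others of that subunit were Mrpl15, Mrpl16, Mrpl19, Mrpl27, Mrpl37, Mrpl39, Mrpl40, Mrpl41, Mrpl43 and Mrpl53. The small subunit gave Mrps2, Mrps6, Mrps7, Mrps12, a protein of the decoding centre, Mrps25, Mrps26, Mrps27, an RNA-binding protein of the pentatricopeptide repeat family, and Mrps34. Fold enrichment, the ratio of immunoprecipitate over background that the authors' caller gave each peak, is used here only to describe peaks. Of the 1677 member peaks in all, 136 lay where a member's body overlaps another gene, among them peaks of Mrps6 in all 16 libraries, inside the body of Slc5a3.

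Mrpl41 (chromosome 2, 24972470 to 24975098) had the highest median best-peak fold among members marked in at least 8 libraries, 9.92. Its caRNA folds were 16.4 and 11.02 in Mettl3 CKO and 18.4 and 13.5 in Mettl3 Control libraries, and 14.7 and 14.3 in Mettl14 CKO and 14.2 and 15.2 in Mettl14 Control libraries. In mRNA they were 7.101 and 8.82 in Mettl3 CKO and 8.05 and 8.73 in Mettl3 Control, and 8.18 and 8.81 in Mettl14 CKO and 4.82 and 5.61 in Mettl14 Control libraries. CKO and Control folds overlapped in 3 of the 4 comparisons, the exception being Mettl14-line mRNA, where both CKO folds were above both Control folds. A single region of 808 bases (chromosome 2, 24974190 to 24974997, minus strand) held its peak in all 16 libraries. After Mrpl41 in this order came Mrps6 with a median fold of 8.85, Mrpl39 with 8.42, Mrpl50 with 7.62 and Mrpl15 with 6.99. The place of Mrps6 depends on the body it shares with Slc5a3, since with summits in 1 gene body alone it held a peak in 10 libraries, with a median fold of 7.45, and became a gained gene in mRNA of the Mettl14 line. Of the other genes marked in all 16 libraries, Mrpl43 then held a peak in 14.

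The peaks of a gene often came back at the same place. The member peaks merged into 251 regions by overlap of at least 1 bp on the same strand, and 19 of them, on 19 genes, held a peak of all 16 libraries. In Mrps27 (chromosome 13) that region spanned 99414655 to 99415543, at the very end of the gene. In Mrpl12 (chromosome 11) it spanned 120487954 to 120489231, and in Mrps12 (chromosome 7) 28739674 to 28740326, both around the last 10% of the gene. In Mrpl37 (chromosome 4) it lay at the other end, from 107066292 to 107066856 in the first 10%. By contrast, 140 regions held caRNA peaks alone, 9 held mRNA peaks alone, and 47 came from a single library. The transcribed strand was listed for 69 of the 78 members, and 94.5% of their peaks lay on it, against 89.99% over all protein-coding genes with a listed strand.

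More members carried a peak in caRNA than in mRNA. In all 8 caRNA libraries 52 members were marked, and in all 8 mRNA libraries 21. Per library, 59 to 72 members held a peak in caRNA and 36 to 59 in mRNA, so the fractions touched only at a single value. All protein-coding genes split the same way without overlap, with 46.2% to 50.4% marked in caRNA and 34.8% to 43.1% in mRNA libraries. Over the 16 libraries, an exact two-sided permutation test of the number of libraries with a peak, with fraction labels exchanged within each line and genotype and Benjamini-Hochberg adjustment over 13011 protein-coding genes, called 0 of the 74 members tested and 0% of all genes. At an unadjusted p under 0.05, 12 members were marked in more caRNA libraries (10.9% of all genes were) and 0 members in fewer (2.05% of all genes). caRNA lists were longer throughout, and the part of list length in this difference was not tested beyond taking the 10000 strongest peaks of each library, which left 3 members at an unadjusted p under 0.05. For that count the share of all genes is not given here.

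**Figure D2:**
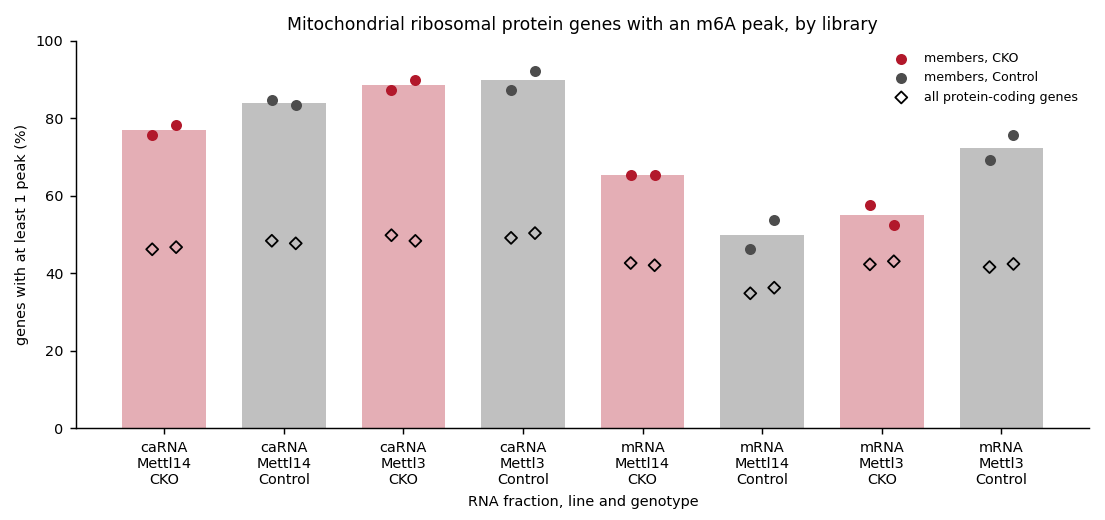
Share of the 78 members with at least 1 peak in each library (filled points; the bar is the mean of the 2 libraries of a group, red CKO and grey Control) beside the share of all protein-coding genes (open diamonds). With all listed peaks, members lie above all protein-coding genes in every library. CKO lies below Control in mRNA of the Mettl3 line (45 and 41 against 54 and 59 members) but above it in mRNA of the Mettl14 line (51 and 51 against 36 and 42).

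Mrpl28 and Mrps14 gave the sharpest split between the fractions. Each had a peak in 8 of 8 caRNA and 0 of 8 mRNA libraries (exact permutation p = 0.00154, the smallest this design allows, adjusted p = 0.0672). Mrps14 (chromosome 1) had caRNA folds of 5.99 and 5.42 in Mettl3 CKO and 3.24 and 4.32 in Mettl3 Control libraries. In the Mettl14 line they were 2.57 and 7.63 in CKO and 1.68 and 1.67 in Control libraries, with both CKO folds above both Control folds in either line. Its region common to all 8 lay close to the gene's start, from 160195393 to 160195816. That of Mrpl28 (chromosome 17, 26123522 to 26124068) lay there too.

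Next in this order were Mrpl34, Mrps28 and Mrps9, with a peak in 8 caRNA libraries and 1 mRNA library each, and Mrpl4, with 7 and 0 (exact permutation p = 0.00463 and adjusted p = 0.0975 for each of these 4). Within the Mettl3 line, 8 of 75 marked members (10.7%) held a peak in all 4 caRNA and no mRNA library, against 7.08% of all genes. They were Mrpl2, whose bacterial counterpart sits by the peptidyl transferase centre, Mrpl4, Mrpl21, Mrpl28, Mrpl34, Mrps9, Mrps14 and Mrps28. In the Mettl14 line there were 7 of 71 (9.86%, against 8.26% of all genes), namely Mrpl1, Mrpl11 of the stalk base, Mrpl28, Mrpl33, Mrps10, Mrps14 and Mrps15. Both shares were near those of all genes. The opposite pattern, a peak in all 4 mRNA and no caRNA library, was held by 0 members in either line, against 2.43% of all genes in the Mettl3 and 1.37% in the Mettl14 line.

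The start of Mrps10 (chromosome 17) and the stretches just upstream of Mrpl48 (chromosome 7) and Mrpl53 (chromosome 6) are shown because each window around a RefSeq start site, 250 bases before it and 50 from it, held the summit of a same-strand peak in 8 or more libraries. The Mrps10 window, chr17:47368947-47369246 on the plus strand, held a summit in 8 caRNA libraries and 1 mRNA library, at positions -167 to -122 from the start site, with folds of 3.18 to 7.67. The Mrpl48 window, chr7:100608252-100608551 on the minus strand, held one in 8 mRNA and 2 caRNA libraries (folds 4.86 to 9.97), at -222 to -173, outside the Mrpl48 body and inside that of Rab6a, which is listed on the other strand. The Mrpl53 window, chr6:83108858-83109157 on the plus strand, held one in 6 caRNA and 2 mRNA libraries (2.92 to 6.66), also before the Mrpl53 body and inside that of Ccdc142, so peaks of the Mrpl48 and Mrpl53 windows are not counted for these genes. Each sequence is RefSeq's for GRCm38.p6 (mm10), 5′ to 3′ on the gene's strand, with GGAC in capitals.
Mrps10: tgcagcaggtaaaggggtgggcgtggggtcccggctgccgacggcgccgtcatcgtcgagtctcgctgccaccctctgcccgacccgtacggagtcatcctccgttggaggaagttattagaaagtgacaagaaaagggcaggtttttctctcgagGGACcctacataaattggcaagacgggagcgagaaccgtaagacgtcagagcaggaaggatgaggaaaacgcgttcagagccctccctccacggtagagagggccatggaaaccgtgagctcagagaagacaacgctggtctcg
Mrpl48: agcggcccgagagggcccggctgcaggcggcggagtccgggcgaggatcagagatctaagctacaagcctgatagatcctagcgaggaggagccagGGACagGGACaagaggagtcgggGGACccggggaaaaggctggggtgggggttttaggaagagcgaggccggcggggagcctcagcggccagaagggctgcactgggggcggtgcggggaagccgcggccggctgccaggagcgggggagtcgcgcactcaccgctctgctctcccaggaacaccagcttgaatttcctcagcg
Mrpl53: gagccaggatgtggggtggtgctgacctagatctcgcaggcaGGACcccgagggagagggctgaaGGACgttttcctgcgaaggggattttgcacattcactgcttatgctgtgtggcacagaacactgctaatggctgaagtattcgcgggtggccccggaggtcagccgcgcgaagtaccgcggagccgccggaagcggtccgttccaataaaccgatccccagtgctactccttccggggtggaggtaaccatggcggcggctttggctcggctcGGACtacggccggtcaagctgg
GGAC was searched on the gene's strand and, as GTCC, on the other, and these motifs cannot overlap each other. It stood 3 times in the Mrpl48 and Mrpl53 windows and once in that of Mrps10. On the gene's strand it is in 65.6% of all 32851 windows of this length, and on either strand in 87.7%. Windows of 69 members were listed, and 62 of their 75 windows (82.7%) held it on the gene's strand. A match is a description of the letters and not a mapped m6A site.

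The Mettl14 and Mettl3 lines were then compared with each other. Mrps36, named as a small subunit protein and since assigned to the oxoglutarate dehydrogenase complex, carried a peak in 0 of 8 libraries of the Mettl14 line and in 8 of 8 of the Mettl3 line. Its caRNA folds in the Mettl3 line were 8.298 and 7.79 in CKO and 6.504 and 6.505 in Control libraries, and its mRNA folds 3.19 and 2.85 in CKO and 2.87 and 4.04 in Control libraries. The split by line gave p = 0.00154 in the same exact permutation test, with line labels exchanged within fraction and genotype, and an adjusted p of 0.558. The adjusted test called 0 members and 0% of genes. At an unadjusted p under 0.05 it gave Mrps24 with more Mettl14-line libraries (8 against 3, exact permutation p = 0.0278; 1.24% of all genes) and Mrps36 with fewer (3.06% of all genes). Among the 10000 strongest peaks of each library, 6 members had an unadjusted p under 0.05 for line. The share of all genes at that setting is not given here, so this count has no background.

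No member was marked in all 4 Mettl14-line and no Mettl3-line library in caRNA (1.65% of all genes) or in mRNA (1.38%). In mRNA, 5 of 68 marked members (7.35%, against 3.25% of all genes) held a peak in no Mettl14-line and all 4 Mettl3-line libraries: Mrpl1, Mrpl11, Mrpl33, Mrps15 and Mrps36. In caRNA, Mrpl2, Mrpl21 and Mrps36 did so, 3 of 76 (3.95%, against 3.24% of all genes). Mrpl2 (chromosome 17) had caRNA folds of 16.5 and 18.98 in Mettl3 CKO and 6.95 and 6.84 in Mettl3 Control libraries, with both CKO folds above both Control folds, and no peak in the other 12 libraries. Mrps15 (chromosome 4) had mRNA folds of 5.95 and 5.89 in Mettl3 CKO and 6.42 and 6.26 in Mettl3 Control libraries, all at 126055339 to 126055792 near the end of the gene. Line and the making of each line's libraries cannot be told apart.

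Each knockout was then compared with its Control cells for members whose peak was present in one genotype and absent from the other. Such calls do not show which members need the enzyme for their peak. A peak kept in CKO does not show a mark made without the enzyme, since the completeness of deletion is not stated. A gene was called lost when neither CKO library but both Control libraries held a peak, gained when both CKO and neither Control library did, and retained when all 4 did. With 2 libraries against 2, an exact test within a comparison cannot go below p = 0.333, so calls are counts read against the share of all protein-coding genes called the same way. In the 4 comparisons 26 members received 27 calls, 16 lost and 11 gained. Only Mrps31 was called more than once.

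In mRNA of the Mettl3 line, 8 of the 53 members marked in both Control libraries were called lost in CKO (15.1%), against 3.67% of all genes. The large subunit gave Mrpl9, Mrpl10, a protein of the stalk base, Mrpl14, which in assembling ribosomes is bound by the factor MALSU1, Mrpl38 and Mrpl51. The small subunit gave Mrps23, Mrps31 and Mrps35. Another 34 of the 53 were retained (64.2%, against 91.5% of all genes). Member peaks were weaker than those of all protein-coding genes in these Control libraries, with median folds of 3.06 and 2.98, against 4.86 and 4.68. All genes are thus not a background matched for peak strength, and the part of strength in the lost share was not tested. Taken per library, 45 and 41 members held a peak in CKO, against 54 and 59 in Control, while the share of all protein-coding genes was 42.3% and 43.1% in CKO and 41.6% and 42.4% in Control. Members in CKO and Control libraries did not overlap in number, and those of all genes did.

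Among the 8 genes the lost peaks ranged from weak to strong, and for Mrpl9, Mrpl10, Mrpl14 and Mrps23 the best summit lay in the last 10% of the gene in both Control libraries. None of the 8 genes had a peak in either Mettl3 CKO library. Mrpl9 (chromosome 3) had Control folds of 3.96 and 3.12, with its lost regions at 94447960 to 94448164 and 94448385 to 94448653. Mrps23 (chromosome 11) had 3.85 and 3.24, at 88210796 to 88211000 and 88211219 to 88211493. Mrpl10 had 1.92 and 2.73, Mrpl14 2.84 and 2.78, Mrpl38 3.14 and 3.13, Mrpl51 2.27 and 2.36 and Mrps35 1.76 and 1.68 as Control folds. The strongest was Mrps31 (chromosome 8), with Control folds of 6.56 and 5.997 at 22423628 to 22423784. In caRNA of that line all of them but Mrps31 held a peak in all 4 libraries. Mrpl9, Mrpl10, Mrps23 and Mrps31 were retained in mRNA of the Mettl14 line.

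Only 3 of the 37 members marked in both Mettl3 CKO mRNA libraries were called gained (8.11%, against 4.67% of all genes): Mrpl13, Mrpl48 and Mrps10. Mrpl13 (chromosome 15) had CKO folds of 5.76 and 4.98, at 55548188 to 55548353. Mrpl48 had 2.56 and 3.29, at 100559901 to 100560062, and Mrps10 4.34 and 2.02. The Mrps10 peaks of the 2 CKO libraries did not overlap, the first lying in the window printed above and the second further into the gene. No Control library held a peak of these genes in this mRNA comparison.

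The count of lost members in this comparison changed with the number of peaks taken and with the libraries. Among the 10000 strongest peaks of each library 3 of 18 members were lost (7.12% of all genes), none of them from the list of 8. With Mettl3 CKO library 1 left out the count was 15 and with Mettl3 Control library 1 left out 14, since a gene then needed fewer libraries to be called.

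More members carried a peak in CKO than in Control libraries in mRNA of the Mettl14 line. Of 48 members marked in both CKO libraries, 7 were called gained (14.6%), against 12.6% of all genes, a share close to that background. They were Mrpl24, which lines the exit tunnel, Mrpl49, Mrpl52 and Mrpl57 of the large subunit, and Mrps5, Mrps18c and Mrps21 of the small subunit. Mrps18c had the strongest CKO folds, 6.05 and 6.62, followed by Mrpl24 with 3.64 and 3.33 and Mrps21 with 5.03 and 1.99. Mrps5 had 2.22 and 3.23, Mrpl49 1.84 and 1.92, Mrpl57 1.91 and 1.796 and Mrpl52 1.5004 and 1.53. None of the 7 held a peak in either Control library, and all 7 held one in all 8 caRNA libraries. One of the Mrps21 peaks lay on the strand opposite to the gene.

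Of 35 members marked in both Mettl14 Control mRNA libraries, 0 were called lost (1.7% of all genes) and 35 were retained (100%, against 97% of all genes). Per library 51 and 51 members held a peak in CKO, against 36 and 42 in Control. The share of all protein-coding genes was likewise higher in CKO (42.7% and 42.1%, against 34.8% and 36.3%), and the Control lists were the shorter ones. With the 10000 strongest peaks of each library, 24 and 25 members were marked in CKO against 21 and 24 in Control, and 2 of 24 were gained (6.67% of all genes). With Mettl14 Control library 2 left out 12 were gained.

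**Figure D3:**
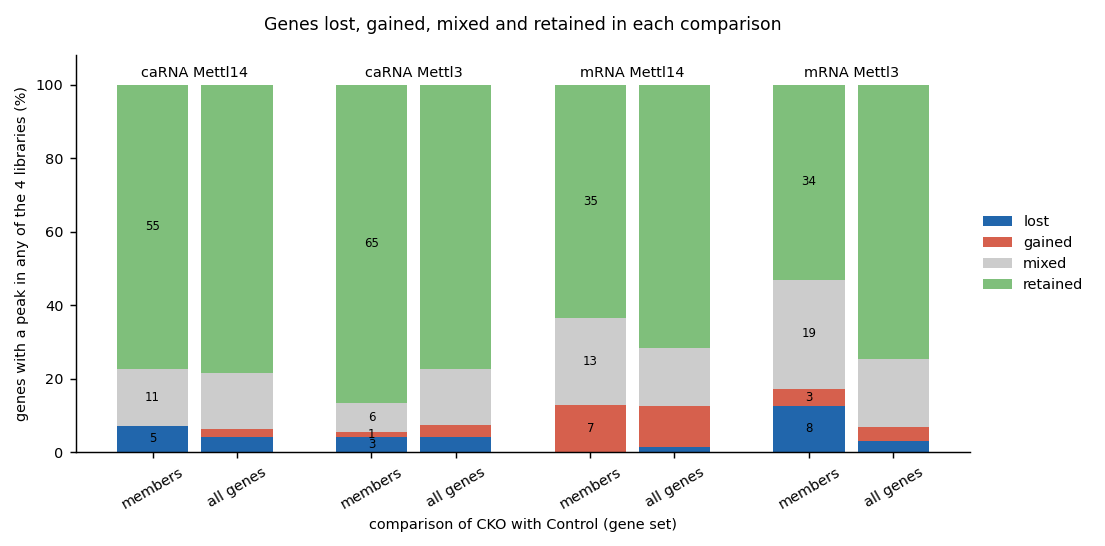
Calls in each comparison of CKO with Control, as a share of the genes with a peak in any of its 4 libraries, for members (left bar of each pair, with counts printed) and for all protein-coding genes (right bar); mixed means any other combination. In mRNA of the Mettl3 line the members show 8 lost, 3 gained, 19 mixed and 34 retained genes, with a smaller retained share than all genes.

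In caRNA most members kept a peak when all listed peaks were taken. In the Mettl3 line 65 of 68 members marked in both Control libraries were retained (95.6%, against 90.1% of all genes), 3 were lost (4.41%, against 4.78%), and 1 of 67 was gained (1.49%, against 3.76%). Mrpl50 (chromosome 4) stood out by strength, with no peak in CKO, against Control folds of 9.27 and 13.1, at 49513454 to 49513812 and 49514186 to 49514697 toward the end of the gene. It was the only one of the 27 calls that was also made from the 10000 strongest peaks of each library. In the Mettl14 line the same gene was retained, with caRNA folds of 9.45 and 8.47 in CKO and 12.6 and 11.1 in Control libraries.

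Mrps30, which despite its name sits in the large subunit, had no peak in Mettl3 CKO, against Control folds of 4.81 and 6.21, and Mrps24 likewise had none, against Control folds of 3.22 and 3.42. Mrpl47 (chromosome 3) was the gained gene, with CKO folds of 7.68 and 9.39 at 32734138 to 32734346 and no peak in Control. Per library 68 and 70 members were marked in CKO, against 68 and 72 in Control, so the groups overlapped, as did the shares of all protein-coding genes (49.8% and 48.4% in CKO, 49.1% and 50.4% in Control). From the 10000 strongest peaks, 9 of 33 members were lost (20.2% of all genes) and 4 of 28 gained (11.6% of all genes). At that setting 19 of 33 were retained, a smaller share than the 68.5% of all genes.

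In caRNA of the Mettl14 line 5 of 63 members were lost (7.94%, against 4.7% of all genes), 0 of 57 gained (2.74% of all genes), and 55 of 63 retained (87.3%, against 90%). Lost were Mrpl20, Mrpl22, which lines the exit tunnel, Mrpl32, a protein that is matured by the m-AAA protease before it joins the ribosome, Mrpl36 and Mrps31. None had a peak in CKO. Control folds were 5.699 and 3.94 for Mrpl20 (chromosome 4, 155808546 to 155808749), 4.698 and 4.53 for Mrpl22 and 4.701 and 5.14 for Mrpl32 (chromosome 13, 14610509 to 14610705). They were 4.53 and 5.86 for Mrpl36 (chromosome 13, 73331457 to 73331894) and 4.86 and 6.71 for Mrps31. The Mrpl22 peaks of the 2 Control libraries did not overlap. That of library 1 lay in a region at 58175137 to 58175298 and that of library 2 at 58174294 to 58174489, so no single Mrpl22 region was lost. Mrpl20, Mrpl22, Mrpl32 and Mrpl36 held a peak in all 4 caRNA libraries of the Mettl3 line. Per library 59 and 61 members were marked in CKO, against 66 and 65 in Control, with no overlap, and the share of all protein-coding genes was also lower in CKO (46.2% and 46.7%, against 48.4% and 47.7%). With Mettl14 CKO library 2 left out, 8 members were lost. From the 10000 strongest peaks, 7 of 25 members were lost (8.17% of all genes), none of them from the list of 5. At that setting 14 of 25 were retained, a smaller share than the 83.5% of all genes.

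**Figure D4:**
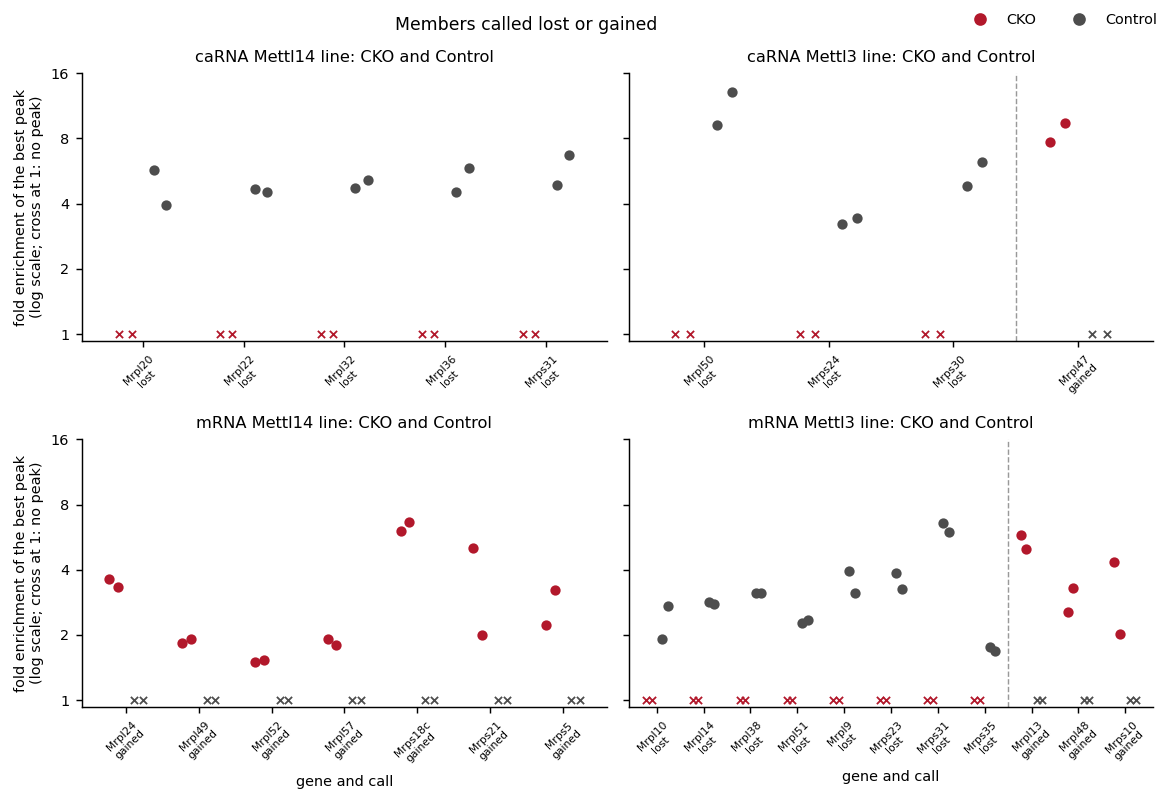
Fold enrichment (log axis) of the best peak in each library for every member called lost or gained, CKO red and left, Control grey and right; a cross at 1 marks a library with no peak. Lost genes of mRNA in the Mettl3 line have no CKO peak and Control folds of 1.68 to 6.56, and those of caRNA in the Mettl14 line 3.94 to 6.71.

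Mrps31, a small subunit gene, showed the smallest genotype p of any member. It carried a peak in 3 of 8 CKO and 7 of 8 Control libraries. In mRNA the lost Mettl3-line peak lay on the gene's strand, whereas the retained peak of the Mettl14 line (folds 5.89 and 4.83 in CKO and 5.302 and 5.58 in Control) lay on the opposite strand near the start, at 22410812 to 22411077. In caRNA of the Mettl3 line it was marked in 1 CKO library (4.35) and 1 Control library (6.33). Over all 16 libraries, genotype labels permuted within fraction and line gave p = 0.1204 for Mrps31 (exact two-sided permutation test, adjusted p = 1). The test called 0 of 74 members and 0% of all genes after adjustment. The smallest genotype p of any gene was 0.00926 (exact permutation), which cannot pass adjustment unless a great many genes reach it. Even at an unadjusted p under 0.05 the test gave 0 members higher (0.292% of all genes) and 0 lower in CKO (0.169%). Mrpl48 came next among members with more CKO libraries (6 against 3) and 6 tied members among those with fewer, namely Mrpl20, Mrpl22, Mrpl32, Mrpl50, Mrps24 and Mrps30, each with exact permutation p = 0.167 and adjusted p = 1.

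Regions were called by the same rules as genes. The Mettl3 line in mRNA had 13 of 65 member regions lost (20%, against 9.41% of regions of all protein-coding genes) and 10 of 52 gained (19.2%, against 9.96%). The Mettl14 line in mRNA had 2 of 41 lost (4.88%, against 6.62%) and 10 of 56 gained (17.9%, against 23.7%). Of caRNA regions, 19 of 145 were lost (13.1%, against 15.4%) and 16 of 154 gained (10.4%, against 16%) in the Mettl3 line, and 13 of 100 lost (13%, against 14.4%) and 11 of 91 gained (12.1%, against 9.09%) in the Mettl14 line. A retained gene could thus lose single regions: Mrpl39 (chromosome 16) lost the region at 84719255 to 84719550 in caRNA of the Mettl3 line, and Mrpl44 (chromosome 1), which has a ribonuclease III-like fold, the one at 79780912 to 79781185 in caRNA of the Mettl14 line.

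Lost regions lay in the last 10% of the gene more often than gained ones in 3 of the 4 comparisons, among members as among all protein-coding genes. On the gene's strand, 7 of 10 lost regions in mRNA of the Mettl3 line had their summit in the last 10% of the gene body, against 0 of 7 gained regions, and over all protein-coding genes 44.6% of lost and 12.9% of gained regions did. In caRNA the counts were 5 of 14 lost and 0 of 12 gained in the Mettl3 line, and 5 of 10 lost and 0 of 9 gained in the Mettl14 line. Over all protein-coding genes these shares were 40.1% of lost and 7.71% of gained regions in the Mettl3 line, and 26.2% of lost and 7.48% of gained regions in the Mettl14 line. Retained regions lay between, with 9 of 33, 20 of 99 and 18 of 63 in these 3 comparisons. The 2 lost mRNA regions of the Mettl14 line lay on the opposite strand, and 3 of 9 gained and 11 of 32 retained regions were in the last 10%. These counts are small and were not tested.

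The same held for all sense-strand summits of the members. In mRNA of the Mettl3 line 20.7% and 21.2% of them lay in the last 10% in CKO, against 38.1% and 37.3% in Control, and over all protein-coding genes 28.8% and 28.5% in CKO, against 33.6% and 33.0% in Control. In the first 10% the members had 10.3% and 9.62% in CKO, against 3.17% and 2.99% in Control, which rests on 6 and 5 summits in CKO and 2 and 2 in Control. Over all protein-coding genes the first 10% held 11.3% and 12.1% in CKO, against 8.56% and 9.35% in Control. The CKO and Control libraries did not overlap in either measure. In caRNA the last 10% held 16.6% and 17.8% in Mettl3 CKO, against 21.97% and 21.3% in Control, and 21.7% and 22.5% in Mettl14 CKO, against 27.8% and 28.9% in Control, with no overlap in either line and the same order over all genes. Summits of Mettl14-line mRNA gave 34.5% and 37.7% in CKO and 40.5% and 37.2% in Control, which overlapped. In these 3 comparisons without overlap the members thus followed all genes in order, and whether the gap in mRNA of the Mettl3 line was larger for members was not tested.

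**Figure D5:**
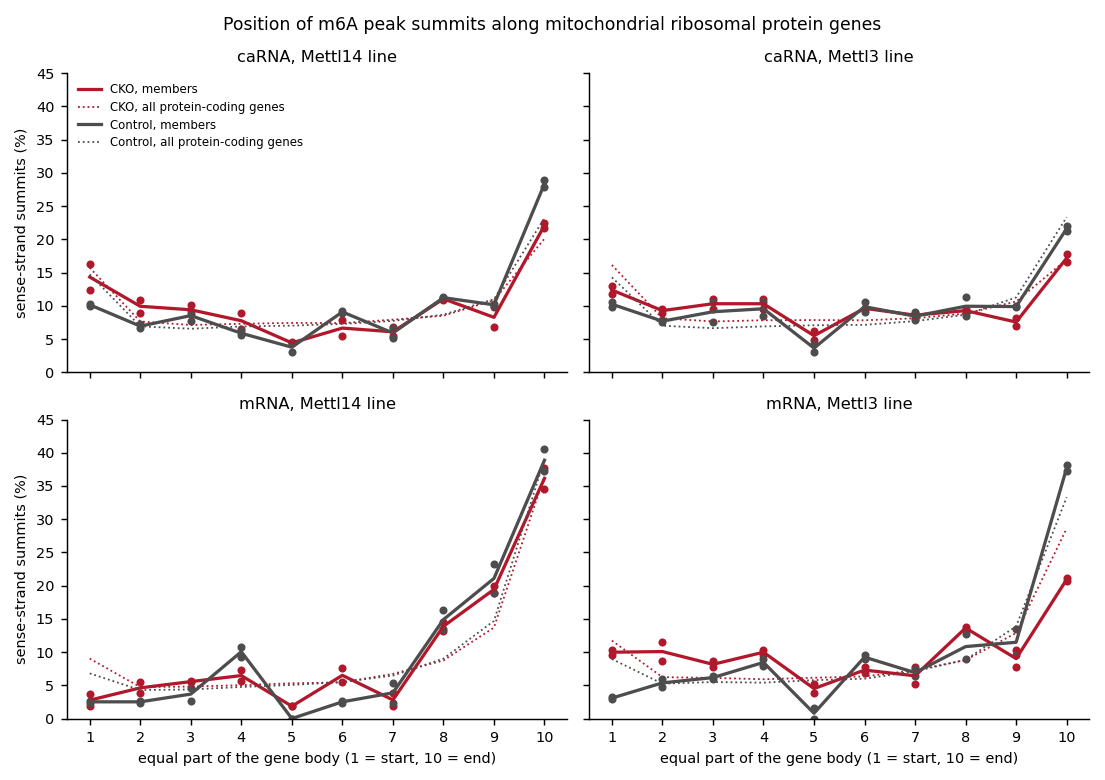
Share of sense-strand summits in each of 10 equal parts of the gene body, from start to end, for members (solid lines are means of 2 libraries, points single libraries) and for all protein-coding genes (dotted), CKO red and Control grey. The last 10% of Mettl3-line mRNA holds 20.7% and 21.2% of member summits in CKO, against 38.1% and 37.3% in Control.

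The rest of the mitochondrial translation pathway was read from 68 further genes. They covered ribosomal proteins with other symbols, translation factors, aminoacyl-tRNA synthetases and assembly factors. In mRNA of the Mettl3 line 5 of 50 marked genes were lost (3.67% of all genes) and 2 of 45 gained (4.67% of all genes). Those lost included Ptcd3, a ribosomal protein of the small subunit, and Noa1, Eral1 and C1qbp, which act in assembly or bind ribosomal RNA, with Eral1 a chaperone of the small subunit's RNA. Noa1 had no peak in CKO, against Control folds of 4.01 and 4.95, and Eral1 had none, against 6.14 and 3.32. Gained were Tsfm, the elongation factor that recharges the mitochondrial counterpart of EF-Tu (CKO folds 5.61 and 6.17), and Nsun4, a ribosomal RNA methyltransferase (4.18 and 9.92).

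Of the same 68 genes, 1 of 50 was lost in mRNA of the Mettl14 line (1.7% of all genes), namely Nsun4 (no CKO peak, Control folds 4.15 and 3.24), and 3 of 54 gained (12.6% of all genes), namely Gfm2, a ribosome recycling factor, and the synthetases Tars2 and Kars. Nsun4 was thus gained in one line and lost in the other, a difference that was not tested. In caRNA 1 of 61 was lost in the Mettl3 line (4.78% of all genes), Yars2, the tyrosyl-tRNA synthetase. In the Mettl14 line 2 of 61 were lost (4.7% of all genes), Mrrf, a recycling factor, and Guf1, a translational GTPase. Neither count is above the share of all genes. No gene of these lists was gained in caRNA, of 56 in the Mettl3 (3.76% of all genes) and 58 in the Mettl14 line (2.74%).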

How the data were processed

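MeRIP-seq of 32 samples was deposited, 16 of them immunoprecipitations, and the 16 input samples, which came without a peak list, were not used here. Each immunoprecipitation has 1 peak list with strand, and replicates were not pooled. Per the submitters' processing notes, tools named without a role were HISAT2 2.1.0, SAMtools 1.9, Trimmomatic 0.38 and CASAVA, on the mm10 build. Which caller made the peaks, and how it scaled immunoprecipitate to input, is not given in the sources used here. Per peak, the authors deposited a fold enrichment (a ratio), a −log10 p and a −log10 q, a whole-number score and a summit offset in bases. The lowest deposited −log10 q of a list was 2.00, the shortest peak 150 bases. Depth is unknown, so no counting interval is given. Folds describe peaks and were not tested between lists.

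Spike-in peaks were set aside. Gene bodies came from RefSeq's GRCm38.p6 table (mm10), and the gene strand from RefSeq's start-site windows. Calls, regions and exact permutation tests (Python 3.11.15, numpy 2.4.6, pandas 2.3.3) are as described in the results. The tests covered genes with a peak in 2 or more libraries and cannot give an exact permutation p below 0.00154. Their p-values matched a full enumeration of label exchanges on simulated data, in the layout of the fraction test alone. Whether the adjusted tests can recover a known difference was not checked. Members named by rule were those called lost or gained, those marked in all 16 libraries, the 5 with the highest median fold among members with a peak in at least 8 libraries, and the 5 with the smallest fraction p, with ties kept. Other members were named because of the results shown, such as Mrps36, Mrpl2 and Mrps15 for their split by line and Mrpl44 for a lost region. Alternatives were the 10000 strongest peaks per library, −log10 q of at least 5, the annotated strand, summits in 1 gene body alone, summits within 100 nt, a replicate block, and leaving out each library. The members and lists were chosen with earlier results of these data known. Correlations of same-numbered deviations were -0.019 to 0.010, which does not settle whether same-numbered libraries were prepared together. The labels do not say so either, and the main tests did not pair them. No exon annotation or genome sequence was used here, so peaks were placed by gene body alone. One gene of the wider pathway lists is not reported here.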

Additional observations from a re-analysis of the deposited data

Results flagged for a closer look

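The members with a peak in mRNA went opposite ways in the lines. CKO minus Control means differed by 12 members in the Mettl14 line (51 and 51 in CKO, against 36 and 42 in Control) and by -13.5 in the Mettl3 line (45 and 41 in CKO, against 54 and 59 in Control), with every CKO library on 1 side of every Control library in each. The share of all protein-coding genes was also higher in CKO in the Mettl14 line (42.7% and 42.1%, against 34.8% and 36.3%). In the Mettl3 line it overlapped (42.3% and 43.1% in CKO, against 41.6% and 42.4% in Control). The number of member peaks in mRNA also went opposite ways, with a difference of 14.5 in the Mettl14 line (69 and 62 in CKO, against 47 and 55 in Control) and -9.5 in the Mettl3 line (71 and 62 in CKO, against 73 and 79 in Control). The median fold of member peaks in caRNA differed by -0.305 in the Mettl14 line (4.30 and 4.55 in CKO, against 4.78 and 4.67 in Control) and by 0.2996 in the Mettl3 line (4.62 and 4.79 in CKO, against 4.47 and 4.34 in Control). Over peaks of all protein-coding genes the median folds overlapped in the Mettl14 line (5.21 and 5.06 in CKO, against 5.05 and 5.11 in Control). In the Mettl3 line they were lower in CKO (4.55 and 4.78, against 5.10 and 4.96), opposite to the members. None of these differences between the lines was tested. The Mettl14 Control mRNA lists were the shortest, with 16537 and 17738 peaks, and with the 10000 strongest peaks of each library 24 and 25 members were marked in Mettl14 CKO mRNA, against 21 and 24 in Control, and 22 and 17 in Mettl3 CKO mRNA, against 24 and 25 in Control.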

How the results depend on the processing

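Calls of single members changed most with the number of peaks taken. With the 10000 strongest peaks per library 1 of 27 calls was kept, and in mRNA of the Mettl3 line 3 members were lost and 1 gained, in mRNA of the Mettl14 line 2 were gained, and in caRNA of the Mettl3 line 9 were lost and 4 gained, and in caRNA of the Mettl14 line 7 were lost. With −log10 q of at least 5, or with summits in 1 gene body alone, 27 of 27 calls were kept, and 1 member was gained in caRNA of the Mettl14 line at −log10 q of at least 5. On the annotated strand 23 of 24 calls were kept and that of Mrps21 was not. With regions shared by summits within 100 nt, 4 member regions were lost in mRNA of the Mettl14 line. Leaving out 1 library at a time gave 9 to 15 lost and 3 to 4 gained members in mRNA of the Mettl3 line, 0 to 1 lost and 8 to 12 gained in mRNA of the Mettl14 line, 3 to 4 lost and 1 to 2 gained in caRNA of the Mettl3 line, and 5 to 8 lost and 1 to 2 gained in caRNA of the Mettl14 line, where one library then decides for its group. The genotype, fraction and line tests called 0 members after adjustment with all libraries and other peak or gene filters. A gene can pass adjustment over 13011 genes only if many others also come near the exact permutation floor of 0.00154. For genotype the smallest exact permutation p reached with all libraries was 0.00926. Such 0 calls therefore say little about stability. The replicate block also gave 0, but its smallest possible exact permutation p is 0.0078125, and leaving out a replicate number allows no p below 0.125, so neither bears on stability. With the 10000 strongest peaks, 3 members had an unadjusted p under 0.05 for fraction and 6 for line. With the block, 7 members had an unadjusted p under 0.05 for fraction and 1 for line. For these counts at an unadjusted p, and for the calls with a library left out, the shares of all genes are not given here. Such counts therefore cannot be read against a background. The cause of these changes was not tested. Depth is unknown, so a missing peak is not shown to be a missing mark.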
